A study of Mus musculus with 2 samples.

Results

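The 10 genes described here encode chains of the collagens that fill fibrous tissue: collagen I (Col1a1 and Col1a2), collagen III (Col3a1), collagen V (Col5a1 and Col5a2), collagen VI (Col6a1, Col6a2 and Col6a3), collagen XII (Col12a1) and collagen XIV (Col14a1). They were chosen by gene name from the 32245 gene columns of each table, with no threshold on their values, and all 10 were present in both libraries. Their levels were read in 6 cell classes of the mouse knee joint: osteoblast, tendon, fibroblast, synovial lining and mural cells, which were gated on marker genes, and chondrocytes that carried the authors' own mark.

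The cells came from female mice aged 1 month, with 1 library per genotype. The control library was Stat3fl/fl, with both Stat3 copies flanked by loxP sites, and the mutant library was Acan-Cre+/Cre;Stat3fl/fl, which shares those alleles and adds Cre driven from the aggrecan gene, given in the study's methods as a tamoxifen-inducible Cre that acts in chondrocytes. Each library was a pool of the knee joints of 2 to 3 mice, sorted for live cells without the surface markers CD31, Ter119 and CD45, so the spread between mice was not measured, no difference below has a replicate check and no test was made. The control library held 4903 cells with 23576416 estimated UMIs (unique molecular identifiers, each counting 1 captured transcript), and the mutant library held 1340 cells with 7452649. A value of a globin gene was present in 75.7% of the control and 8.43% of the mutant cells, and 14.2% and 36.7% of cells were above 5% mitochondrial counts. In every pair of values below the control library precedes the mutant library. Levels are in CPM, the estimated UMIs of a gene per 1000000 of its class. Stat3 itself was at 142 and 103 CPM in the marked chondrocytes. The sources used here do not place the 3′ tags inside the deleted part of Stat3, so this level does not check the deletion.

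Collagens I, III and V assemble into banded fibrils. Collagen I bears the load in bone and tendon, collagen III forms thinner fibrils in soft, distensible tissue, and collagen V is a minor fibril component that limits fibril width. Collagen VI forms beaded microfibrils close to the cell surface, while collagens XII and XIV sit on the outside of fibrils and link them to their surroundings.

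In the GRCm38 mouse assembly Col1a1 lies on chromosome 11 and Col1a2 on chromosome 6, whereas Col3a1 and Col5a2 are neighbours on chromosome 1, 24.6 kb apart and on opposite strands. Col6a1 and Col6a2 are on chromosome 10, 85.2 kb apart on the minus strand, and Col6a3 is on chromosome 1. Col5a1, Col12a1 and Col14a1 lie on chromosomes 2, 9 and 15. The RefSeq promoter table held 6 of the 10 genes in 7 windows, and 4 windows had no annotated exon in the 120 bases before the start. These 4 are shown for that reason, and no level was used to choose them. They belong to 2 of the genes that were highest in fibroblasts (Col3a1 and Col5a1) and to chains of collagen VI. The levels of collagen VI spanned the smallest range over the classes of the control library. Each stretch is written 5′ to 3′ on the strand of its gene from build GRCm38.p6, at chr1:45311418-45311537 (plus strand) for Col3a1, chr2:27886305-27886424 (plus) for Col5a1, chr10:76623631-76623750 (minus) for Col6a2 and chr1:90843972-90844091 (minus) for Col6a3. Capitals mark motifs on either strand. The first searched was CCAAT, the core bound by the factor NF-Y. The next was TATAAA, the core promoter element bound by the TATA-binding protein. The last was GGGCGG, which Sp1 and its relatives bind.
Col3a1: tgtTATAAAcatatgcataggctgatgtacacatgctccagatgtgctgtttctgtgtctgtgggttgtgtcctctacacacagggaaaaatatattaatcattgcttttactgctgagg
Col5a1: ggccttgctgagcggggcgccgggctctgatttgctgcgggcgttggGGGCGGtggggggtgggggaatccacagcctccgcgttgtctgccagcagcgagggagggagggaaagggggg
Col6a2: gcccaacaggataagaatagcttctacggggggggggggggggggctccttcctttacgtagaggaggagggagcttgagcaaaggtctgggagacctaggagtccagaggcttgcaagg
Col6a3: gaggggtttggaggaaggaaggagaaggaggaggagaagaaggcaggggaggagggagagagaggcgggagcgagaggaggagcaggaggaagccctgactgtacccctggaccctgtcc
Over all promoters of the table, CCAAT was found on either strand in 33.8% of the 250-base windows before the start, TATAAA in 12.4% and GGGCGG in 32.7%. In the 120 bases shown, the Col3a1 stretch held a TATAAA, near its 5′ end and away from the start, and the Col5a1 stretch a GGGCGG. The stretches of Col6a2 and Col6a3 held none of these motifs. In the longer 250-base windows to which the shares refer, Col3a1 had 1 TATAAA, Col5a1 had 2 GGGCGG, Col6a2 had 1 GGGCGG and Col6a3 had none of the motifs.

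A cell without the mark was placed in the class with the most markers above 0, if at least 3 of 6 markers were detected and more than in any other of 12 lists. None of the 10 collagens is a marker. This gave 99 control and 61 mutant osteoblasts, 237 and 39 tendon cells, 275 and 131 fibroblasts, 257 and 68 synovial lining cells, and 53 and 35 mural cells. The marked chondrocytes numbered 501 and 332, the numbers that the study's methods give for cells positive for Sox9 and Col2a1. In each gated class all 6 of its own markers were above 0 in at least 10% of cells of both libraries. The gate itself required at least 3 of these markers, so this describes the gated cells and does not check their identity. Other markers were also present: tendon cells carried means of 1.60 and 1.08 of the 6 chondrocyte markers and 1.34 and 1.15 synovial lining markers. Globin values were found in 52.5% to 69.8% of the control cells of the gated classes and in at most 2.56% of the mutant ones, while no marked chondrocyte of either library had one. Depth also differed, with medians of 4771 and 8994 estimated UMIs per osteoblast and 5876 and 8595 per marked chondrocyte. Among cells without a globin value, all 49 ratios that could be computed (10 of them in marked chondrocytes, which had none to leave out) stayed within 1.5-fold of those over all cells, and among cells within the mitochondrial limit 47 of 49 did. The part of depth in the levels below was not tested, apart from the thinned shares. The libraries shared 2 cell barcodes, of which 1 lay in these classes.

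Together the 10 genes supplied 15.7% of all estimated UMIs in control osteoblasts and 14.5% in mutant osteoblasts. They supplied 11.4% and 5.15% in tendon cells, 6.45% and 3.41% in fibroblasts, 1.23% and 0.814% in synovial lining cells, 0.715% and 0.749% in mural cells, and 1.22% and 1.38% in marked chondrocytes. In the 1659 erythroid-gated control cells, which should not make these collagens, the share was 0.0610%. Transcripts were counted by 3′ UMIs, once per molecule, so levels of different genes were set side by side without division by length.

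The collagen types made up different parts of these sums. Collagen I chains were 94.5% of the members' UMIs in control osteoblasts and 96.5% in mutant ones, and 86.1% and 79.1% in tendon cells. Fibroblasts held collagens I and III in near-equal parts, at 45.7% and 40.1% among control cells and 41.6% and 41.4% among mutant cells. Mural cells, the contractile cells around small vessels, had most of their collagen UMIs in collagen VI (37.1% and 34.2%) and collagen III (30.1% and 29.3%). Among the 6 classes, marked chondrocytes had the largest share of collagen XII, which gave 11.7% and 5.16% of the members' UMIs against at most 4.05% in the other 5. Outside these classes, cells gated on marrow stromal markers had 5.08% and 10.5%.

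**Figure D1:**
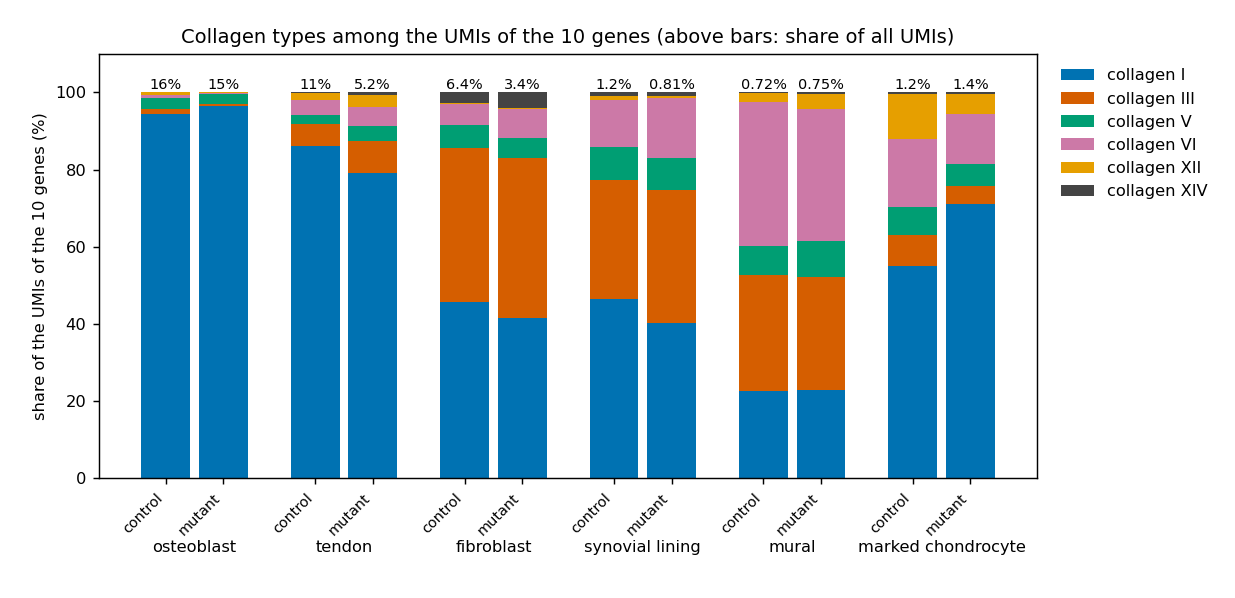
Stacked bars give the share of the members' estimated UMIs (%) from each collagen type in the 6 cell classes, control beside mutant library, and the number above each bar is the share of all UMIs of the class. Collagen I fills most of the osteoblast and tendon bars (79.1% to 96.5%), collagen III is largest in fibroblasts (40.1% and 41.4%), and collagen VI in mural cells (37.1% and 34.2%).

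Col1a1, the major chain of collagen I, was highest in osteoblasts, at 86452 and 77033 CPM, and every osteoblast of both libraries had a value above 0. Tendon cells followed with 50629 and 22973 CPM and fibroblasts with 13337 and 6368 CPM. The lowest level in both libraries was that of mural cells, 708 and 945 CPM, so that the highest class exceeded the lowest 122-fold and 81.5-fold. Synovial lining cells were at 3292 and 1842 CPM and marked chondrocytes at 2657 and 4357 CPM, and these neighbours changed places between the libraries.

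Col1a2, the other chain of collagen I, ran from 61629 and 63400 CPM in osteoblasts to 908 and 762 CPM in mural cells, with the 6 classes in the same order in both libraries. The number of Col1a2 UMIs per Col1a1 UMI stayed between 0.713 in control osteoblasts and 1.52 in control marked chondrocytes. From cell to cell the chains also kept together, with a Spearman rho between their per-cell levels of 0.93 over the 99 control and 0.86 over the 61 mutant osteoblasts and 0.94 and 0.92 over the tendon cells. It was 0.16 and 0.57 over the mural cells, where both chains were low. Cells of a library share its preparation and their total count, so these are descriptions.

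Col3a1, the chain of collagen III, was highest in fibroblasts in both libraries, at 25829 and 14128 CPM. Tendon cells followed at 6607 and 4294 CPM and synovial lining cells at 3763 and 2801 CPM, with mural cells, osteoblasts and marked chondrocytes below in that order. Osteoblasts, the highest class for collagen I, had 1811 and 843 CPM of Col3a1. Per Col1a1 UMI there were 0.0209 and 0.0109 Col3a1 UMIs in osteoblasts, 0.130 and 0.187 in tendon cells, 1.94 and 2.22 in fibroblasts and 3.04 and 2.32 in mural cells. In control tendon cells the per-cell levels of Col1a1 and Col3a1 had a Spearman rho of -0.17 over 237 cells, and in control fibroblasts 0.71 over 275 cells. In the mutant library the values were 0.65 over 39 tendon cells and 0.78 over 131 fibroblasts.

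The chains of collagen V did not share a leading class. Col5a1 was highest in fibroblasts, at 1800 and 746 CPM, and Col5a2 in osteoblasts, at 3365 and 2983 CPM. There were 3.19 and 6.19 Col5a2 UMIs per Col5a1 UMI in osteoblasts and 1.05 and 1.39 in fibroblasts. Marked chondrocytes had 258 and 150 CPM of Col5a1 and 623 and 659 CPM of Col5a2.

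In the control library collagen VI was the most evenly spread, where the highest class exceeded the lowest 3.76-fold for Col6a1, 3.46-fold for Col6a2 and 4.64-fold for Col6a3. In the mutant library these ratios were 7.94, 5.46 and 6.29, and Col5a1, at 4.96-fold, was the most even member. Tendon cells led all 3 chains in the control library, at 1468, 1808 and 1184 CPM. In the mutant library mural cells led Col6a1 (1042 CPM) and Col6a3 (822 CPM) and fibroblasts led Col6a2 (889 CPM), each within 1.09-fold of the next class, a gap that cannot be placed against any replicate spread. Osteoblasts were the lowest class for Col6a1 and Col6a2 in both libraries and for Col6a3 in the mutant library, with 131 to 523 CPM over all 3 chains and both libraries. Per-cell levels of Col6a1 and Col6a2 had a Spearman rho of 0.73 and 0.71 over osteoblasts, 0.60 and 0.69 over tendon cells and 0.68 and 0.60 over marked chondrocytes.

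Collagens XII and XIV, close relatives that both coat fibrils, were found in different cells. Col12a1 was highest in tendon cells, at 2146 and 1664 CPM, followed by marked chondrocytes (1429 and 714 CPM), osteoblasts (1119 and 308 CPM), mural cells (170 and 303 CPM), fibroblasts (159 and 115 CPM) and synovial lining cells (122 and 40.5 CPM), the same order in both libraries. Col14a1 was highest in fibroblasts, at 1732 and 1368 CPM, followed by tendon cells (206 and 288 CPM), synovial lining cells (116 and 79.7 CPM), marked chondrocytes (43.1 and 42.0 CPM) and mural cells (14.6 and 22.5 CPM). Osteoblasts had Col14a1 in 2 of 99 control cells and 0 of 61 mutant cells, which allows a share of up to 5.87% (exact 95% interval). In fibroblasts there were 10.9 and 11.9 Col14a1 UMIs per Col12a1 UMI, and in tendon cells 0.0961 and 0.173.

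The shares of cells with a value above 0 showed the same split. Col12a1 was detected in 89.5% of control tendon cells (exact Clopper-Pearson 95% interval 84.8% to 93.1%) and 24.4% of control fibroblasts (19.4% to 29.9%). Col14a1 was detected in 22.8% (17.6% to 28.7%) and 92.7% (89.0% to 95.5%) of the same cells. In the mutant library Col12a1 was detected in 84.6% of tendon cells and 34.4% of fibroblasts, and Col14a1 in 38.5% and 87.8%. Within tendon cells the per-cell levels of Col12a1 and Col14a1 had a Spearman rho of -0.27 over 237 control and -0.42 over 39 mutant cells. These intervals and those below cover counting error only. The same shares in erythroid-gated control cells, whose median depth was 6216 estimated UMIs, were 1.81% for Col12a1 and 0.904% for Col14a1. The Col14a1 shares in control osteoblasts (2.02%, 0.246% to 7.11%) and mural cells (3.77%, 0.460% to 13.0%) had intervals that held this background.

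**Figure D2:**
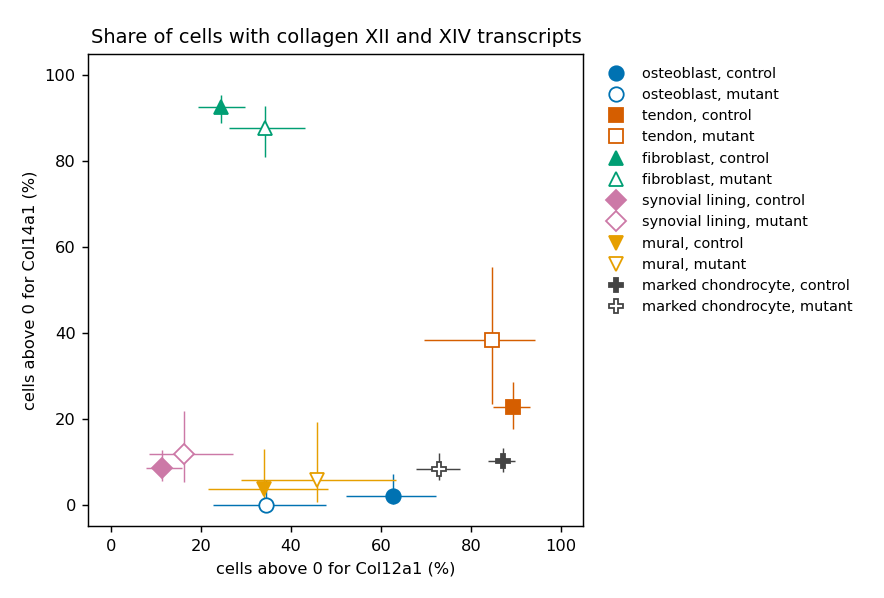
Each point is a cell class in a library, with the share of cells above 0 for Col12a1 on the x axis and for Col14a1 on the y axis (both %), and lines are exact 95% binomial intervals. Fibroblasts sit at the upper left (24.4% and 92.7% in the control library), and tendon cells and marked chondrocytes at the lower right (87.0% and 10.2% in control marked chondrocytes).

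Set against the mean of the other 5 classes in the same library, osteoblasts had Col1a1, Col1a2 and Col5a2 at least 2-fold higher in both libraries, where 6.53% of 9269 genes passed that limit in the control and 7.03% of 8861 in the mutant library. Fibroblasts had Col3a1, Col5a1 and Col14a1 at least 2-fold higher in both (10.0% and 9.66% of genes). Tendon cells had Col1a1, Col1a2, Col6a3 and Col12a1 higher in the control (5.88% of genes), and Col12a1 alone in the mutant library (10.5%). Marked chondrocytes had 6 and 5 members at least 2-fold lower than the mean of the other classes (19.4% and 18.8% of genes), mural cells 7 and 5 (19.0% and 17.1%) and synovial lining cells 7 and 6 (14.6% and 15.3%). Lower members were not limited to these classes. Osteoblasts had 4 and 5, among them Col3a1, Col6a1, Col6a2 and Col14a1 in both libraries, fibroblasts 2 and 3, and tendon cells 0 and 0. The share of all genes was not taken for these lower counts.

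**Figure D3:**
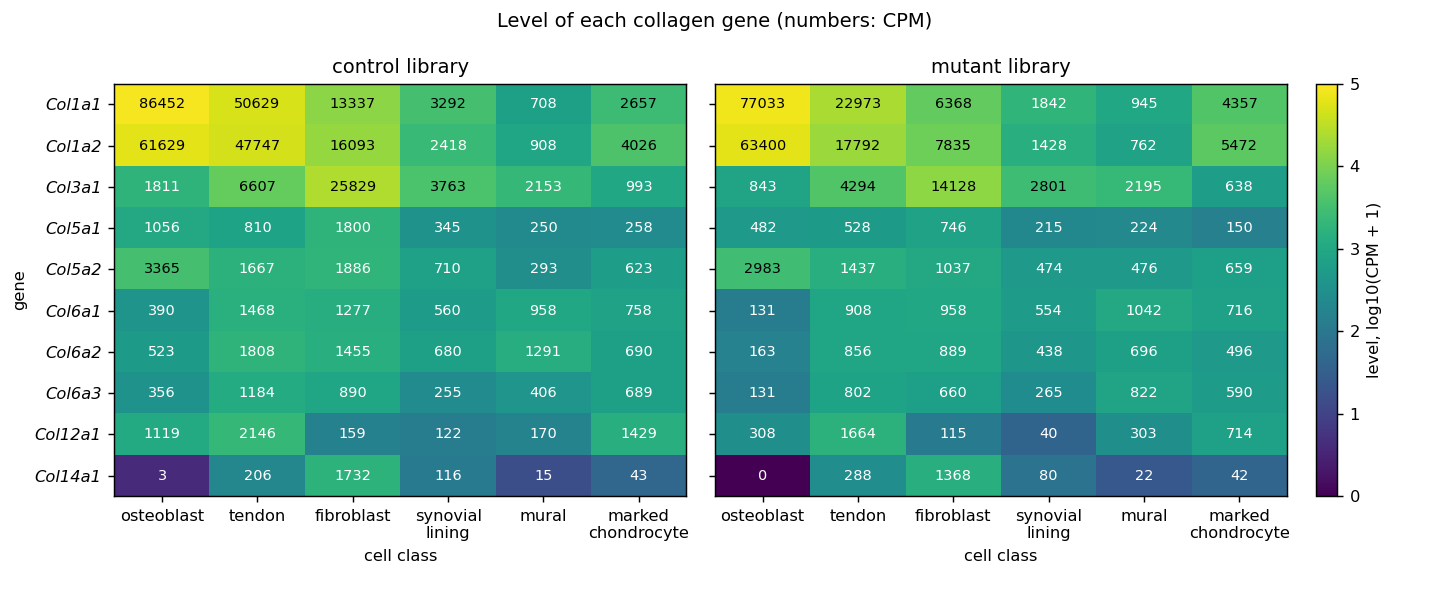
Each tile is the level of a gene (rows) in a cell class (columns), printed in CPM and coloured by log10(CPM + 1), for the control library on the left and the mutant library on the right. The levels of the collagen I chains fall from osteoblasts (86452 and 77033 CPM for Col1a1) to mural cells, Col3a1 and Col14a1 peak in fibroblasts, and the collagen VI rows are the most even in the control panel only (3.46-fold to 4.64-fold), with Col5a1 the most even row of the mutant panel (4.96-fold).

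Between the libraries, osteoblasts differed little in collagen I and were lower in collagens VI and XII in the mutant library. Collagen III was also lower, but its 2-fold call was lost in 3 of 11 alternatives. The log2 ratio of mutant to control CPM (1 CPM added to each) was -0.17 for Col1a1, 0.04 for Col1a2 and -0.17 for Col5a2. Col12a1 went from 1119 to 308 CPM (-1.86), Col6a2 from 523 to 163 CPM (-1.68), Col6a1 from 390 to 131 CPM (-1.56), Col6a3 from 356 to 131 CPM (-1.44), Col5a1 from 1056 to 482 CPM (-1.13) and Col3a1 from 1811 to 843 CPM (-1.10). Thus 6 of the 9 members of at least 10 CPM were 2-fold lower and 0 higher, where 17.4% of 8156 genes were 2-fold lower and 8.53% higher. The median was -1.13 over these 9 members and -0.21 over all genes of at least 10 CPM in either library.

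Few cells held most of the remaining UMIs of some of these genes in mutant osteoblasts. Of the mutant UMIs of Col3a1, 3 cells supplied 88.3%, and 3 cells supplied 62.6% of those of Col12a1. For Col6a1, Col6a2 and Col6a3 the mutant shares of 3 cells were 56.0%, 59.2% and 65.6%, and the control shares 23.5%, 21.7% and 26.3%. Col12a1 was detected in 62.6% of control osteoblasts (52.3% to 72.1%) and 34.4% of mutant ones (22.7% to 47.7%). Thinned to 2000 UMIs per cell, with 7 and 8 shallower cells dropped, it was detected in 48.9% and 22.6%. Among control osteoblasts the per-cell levels of Col1a1 and Col12a1 ran in opposite directions, with a Spearman rho of -0.56 over 99 cells, and the mutant value was -0.13 over 61 cells. Of the 6 osteoblast markers, Bglap, the gene of osteocalcin, was at 17987 and 55010 CPM, which took the sum from 26670 to 60097 CPM. The other 5 were lower in CPM in the mutant library, from Ibsp (bone sialoprotein) at 7044 and 3766 CPM to Sp7 at 125 and 121 CPM. Detection differed from this. Ibsp was found in 94.9% and 91.8% of cells, but Sp7 (49.5% and 60.7%), Dmp1, Phex (37.4% and 55.7%) and Ifitm5 in more mutant than control cells. The mean number of markers per cell was 3.71 and 4.23, at a greater mutant depth. The tendon markers summed to 249 and 234 CPM in these cells, the fibroblast markers to 1.77 and 1.43 CPM and the synovial lining markers to 47.2 and 299 CPM. The part of these markers in the differences was not tested. With at least 4 markers required, the Col3a1 ratio was -3.0 and the Col6a3 ratio -2.82, and in cells with fewer than 2 markers of every other class the Col3a1 ratio was 0.00.

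In tendon cells the collagen I chains were lower in the mutant library, Col1a1 at 50629 and 22973 CPM (log2 ratio -1.14) and Col1a2 at 47747 and 17792 CPM (-1.42). Col6a2 was also 2-fold lower, at 1808 and 856 CPM (-1.08), and Col12a1, the member furthest above the other classes in tendon cells, was at 2146 and 1664 CPM (-0.37). These 3 of 10 members stood against 20.2% of 8924 genes that were 2-fold lower, 0 were higher against 11.6%, and the median was -0.62 for the members and -0.16 for all genes. The mutant class held 39 cells, of which 3 gave 40.7% of the Col1a1 UMIs. The median mutant tendon cell had 7852 CPM of Col1a1 and the median control cell 37083 CPM. Of the 6 tendon markers 5 were also lower in the mutant class, among them Fmod at 5517 and 3442 CPM, Thbs4 at 3411 and 1785 CPM and Tnmd at 2771 and 1365 CPM, whereas Scx, the tendon transcription factor, was at 237 and 354 CPM. With at least 4 markers required, Col1a1 (-0.79) and Col6a2 (-0.94) no longer passed 2-fold. Col14a1 was at 206 and 288 CPM (0.48). Cells above 5% mitochondrial counts were 12.7% and 38.5% of the class. Within that limit, over 207 and 24 cells, the Col12a1 ratio was -1.06 and the Col14a1 ratio 1.21, both past 2-fold. The part of the mitochondrial counts in these ratios was not tested.

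All 10 members had a ratio below 0 in fibroblasts, though that of Col12a1 (159 and 115 CPM, -0.47) was 0.26 with cells weighted equally. Of its UMIs 3 cells held 48.7% and 44.2%, and it was detected in 24.4% and 34.4% of fibroblasts, or 15.1% and 14.8% after thinning. Col5a1 went from 1800 to 746 CPM (-1.27), Col1a1 from 13337 to 6368 CPM (-1.07) and Col1a2 from 16093 to 7835 CPM (-1.04), and these 3 passed 2-fold, against 12.6% of 8935 genes, with 0 higher against 6.32%. With at least 4 markers required, Col1a1 (-0.91) and Col1a2 (-0.92) no longer passed. Col3a1 went from 25829 to 14128 CPM (-0.87), while Col14a1 (-0.34), Col6a1 (-0.41) and Col6a3 (-0.43) differed least. The members' median was -0.79 and that of all genes -0.17, so genes in general also leaned below 0. The 6 fibroblast markers summed to 5393 and 5750 CPM, the synovial lining markers to 735 and 1333 CPM and the chondrocyte markers to 413 and 1219 CPM, and the part of these markers in the differences was not tested. At the 10th percentile of cells Col3a1 was at 9658 and 277 CPM, and it was detected in 275 of 275 and 123 of 131 cells.

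In synovial lining cells 9 of 10 members had a ratio below 0 and 1 was 2-fold lower, against 9.34% of 8490 genes, with 0 higher against 7.33%. That gene was Col12a1, at 122 and 40.5 CPM (-1.57), which was detected in 11.3% and 16.2% of cells and had 71.7% of its control UMIs in 3 cells. With a minimum of 2 markers its ratio was 0.00, and in cells with fewer than 2 markers of every other class it was 0.93. Col1a1 was at 3292 and 1842 CPM (-0.84) and Col6a1 at 560 and 554 CPM (-0.02). The members' median was -0.61 and that of all genes -0.08, which was also below 0.

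Mural cells went the other way for Col6a3, which was at 406 and 822 CPM (log2 ratio 1.02). Over all cells it was the only member 2-fold higher in the mutant library in any of the 6 classes. In mural cells 19.5% of 9582 genes were 2-fold higher and 22.9% lower, the latter with 0 members. Col12a1 was at 170 and 303 CPM (0.83), Col5a2 at 293 and 476 CPM (0.70) and Col6a2 at 1291 and 696 CPM (-0.89). The classes held 53 and 35 cells, and 3 cells supplied 51.9% of the mutant Col6a3 UMIs. Without the 3 highest cells of each library the Col6a3 ratio was 0.79 and no longer passed 2-fold. The call was lost in 4 of 8 alternatives, the others being a minimum of 2 markers, a minimum of 4 markers and cells weighted equally. The class held 49.0 and 142 Col6a3 UMIs, at median depths of 1994 and 4164 estimated UMIs per cell. Cells above 5% mitochondrial counts were 22.6% and 48.6% of the class, and their part in the result was not tested.

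**Figure D4:**
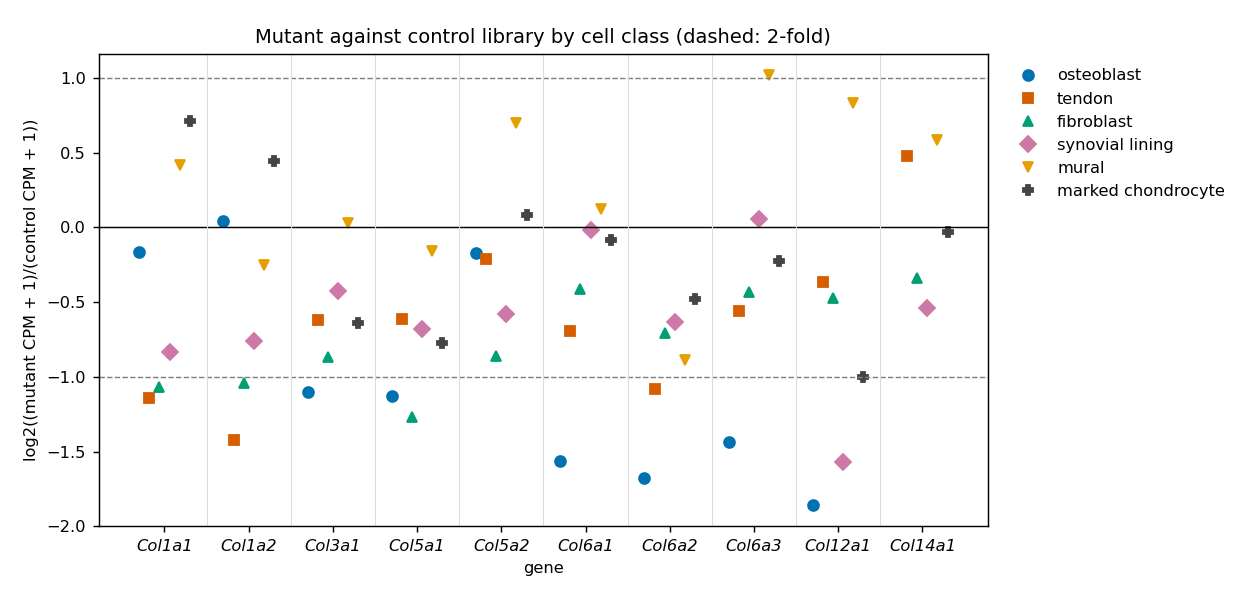
Each point is the log2 ratio of mutant to control CPM (1 CPM added) of a gene in a cell class, for genes of at least 10 CPM in either library, and dashed lines mark 2-fold. Osteoblasts lie near 0 for Col1a1, Col1a2 and Col5a2 and between -1.86 and -1.10 for the others, fibroblasts are below 0 for every gene, and marked chondrocytes run from 0.71 for Col1a1 to -1.0 for Col12a1.

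In marked chondrocytes Col12a1 differed most, at 1429 and 714 CPM (-1.0). It was the only member of 10 that passed 2-fold, by a narrow margin, against 6.63% of 8117 genes that were 2-fold lower and 4.57% that were higher, and the members' median was -0.15 against -0.18 for all genes. Col12a1 was detected in 87.0% of control cells (83.8% to 89.8%) and 72.9% of mutant cells (67.8% to 77.6%), and after thinning in 76.9% and 53.3%, with 34 and 32 cells left out. The median cell had 1019 and 351 CPM, and 3 cells supplied 4.31% and 6.63% of the UMIs, so a few cells did not supply most of it. Over the alternatives the ratio ran from -1.14 to -0.84, so that the 2-fold limit was not always passed. No Col12a1 was found in 13.0% and 27.1% of the cells. Markers of the class were lower too, with Acan (aggrecan) at 4837 and 1697 CPM, Col9a1 at 3763 and 2456 CPM, Hapln1 at 3164 and 2340 CPM, Cnmd at 2518 and 1752 CPM and Comp at 3016 and 2660 CPM, while Matn3 was at 546 and 612 CPM. Cells above 5% mitochondrial counts were 3.99% and 20.2% of the class, and within that limit the Col12a1 ratio was -1.14. The part of these markers in the difference was not tested.

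The chains of collagen I had the opposite sign in these cells. Col1a1 was at 2657 and 4357 CPM (0.71), and Col1a2 at 4026 and 5472 CPM (0.44), but most marked chondrocytes had no Col1a1, with 66.1% of control and 60.5% of mutant cells at 0. The mark included 3 control cells (0.599%) and 16 mutant cells (4.82%) with at least 3 osteoblast markers. These cells had 60620 and 61207 CPM of Col1a1 and supplied 15.7% of the control and 80.0% of the mutant Col1a1 UMIs of the class, and 9.16% and 57.0% of those of Col1a2. Without them Col1a1 was at 2254 and 925 CPM (-1.28) and Col1a2 at 3682 and 2494 CPM (-0.56), whereas Col12a1 was at 1425 and 747 CPM (-0.93). In the 340 control and 164 mutant cells with no osteoblast marker, Col1a1 was at 2052 and 675 CPM (-1.60) and Col12a1 at 1385 and 820 CPM (-0.76).

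**Figure D5:**
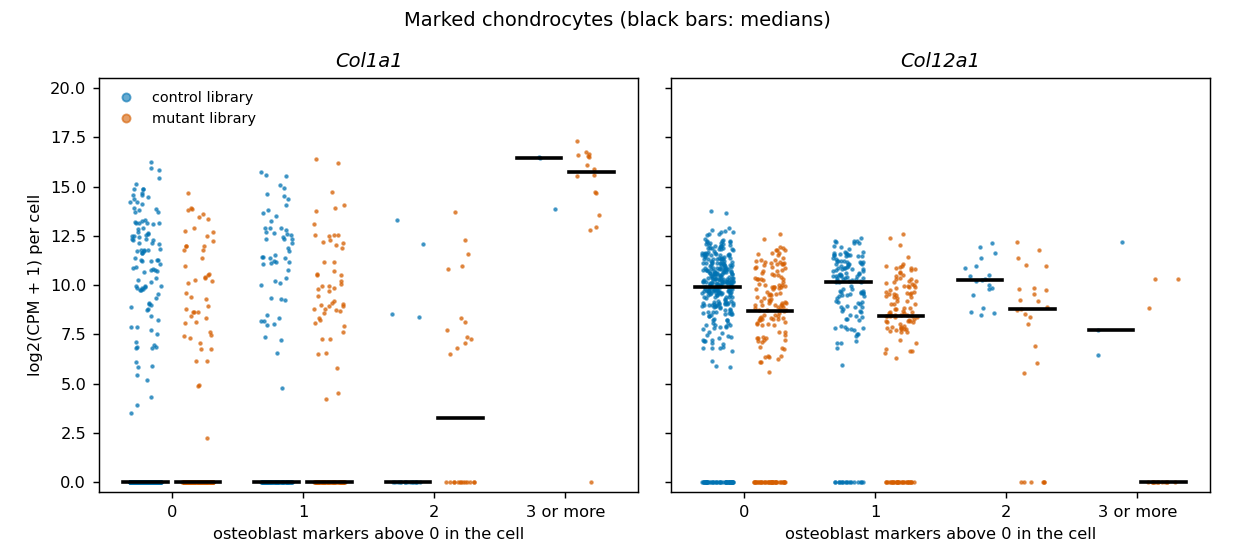
Each point is a marked chondrocyte, placed by the number of osteoblast markers above 0 in it (x axis) and its log2(CPM + 1) of Col1a1 (left) or Col12a1 (right), with black bars at the medians of each library. Cells with 3 or more osteoblast markers, 3 control and 16 mutant, are pooled at the last position, and 1 mutant cell among them has no Col1a1. The Col1a1 medians are 0 in both libraries at 0 and 1 marker, and 0 and 3.24 at 2 markers. Within the pooled cells, medians that are not drawn are 13.8 and 8.31 at 3 markers (1 and 2 cells) and 16.4 and 15.5 at 4 markers (1 and 9 cells). At 0, 1 and 2 markers the mutant medians of Col12a1 (8.70, 8.45 and 8.77) lie below the control ones (9.91, 10.2 and 10.3).

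The marked chondrocytes were also split by Prg4, the lubricin gene of the joint surface. In the 120 control and 136 mutant marked chondrocytes with Prg4 above 0, Col1a1 was at 8477 and 1343 CPM (-2.66) and Col3a1 at 2789 and 1092 CPM (-1.35). In the 381 and 196 cells with Prg4 at 0, Col1a1 was at 1354 and 6340 CPM (2.23) and Col3a1 at 591 and 339 CPM (-0.80). All 16 mutant cells with at least 3 osteoblast markers had Prg4 at 0, and in the 379 and 180 cells with Prg4 at 0 and fewer such markers Col1a1 was at 897 and 622 CPM (-0.53). The opposite signs on the Prg4 sides were therefore not seen without those cells, since the other side was at 8380 and 1343 CPM (-2.64). Col12a1 was lower in the mutant library on both sides, at 1316 and 738 CPM (-0.83) with Prg4 and at 1454 and 698 CPM (-1.06) without. The median depth of the Prg4-positive cells was 3901 and 8480 estimated UMIs, and its part in the differences was not tested.

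Genes that process, fold and cross-link procollagen were read beside the collagens. The counts of this and the following lists stand against the shares of all genes that were 2-fold lower, which were 17.4% in osteoblasts, 20.2% in tendon cells, 12.6% in fibroblasts, 9.34% in synovial lining cells, 22.9% in mural cells and 6.63% in marked chondrocytes. The shares that were 2-fold higher were 8.53%, 11.6%, 6.32%, 7.33%, 19.5% and 4.57% in the same order. Of the 22 listed, 20 had at least 10 CPM in tendon cells, and 6 of these were 2-fold lower in the mutant library and 0 higher, with a median log2 ratio of -0.59 against -0.16 for all genes. They included the prolyl hydroxylase subunit gene P4ha1 (810 and 306 CPM, -1.40), the lysyl hydroxylase gene Plod2 (786 and 265 CPM, -1.57) and the lysyl oxidase-like gene Loxl2 (671 and 257 CPM, -1.38). Serpinh1, the collagen chaperone HSP47, was at 1161 and 1496 CPM (0.37) in the same cells. In fibroblasts 2 of 20 were lower and 1 higher, in osteoblasts 1 of 20 lower and 2 higher, in synovial lining cells 2 of 18 lower and 1 higher, in mural cells 3 of 17 in each direction, and in marked chondrocytes 1 of 20 in each direction. Apart from the lower genes of osteoblasts, which were fewer than the 17.4% of all genes, these counts lay near the shares of all genes.

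Of the fibril-associated proteins, 4 of 10 were 2-fold lower in mutant fibroblasts, among them Postn (periostin; 2008 and 831 CPM, -1.27) and Thbs2 (thrombospondin 2; 316 and 109 CPM, -1.52), and 2 of 9 in osteoblasts, which were the same genes, Postn (809 and 219 CPM, -1.88) and Thbs2 (111 and 43.7 CPM, -1.32). Tendon cells had 2 of 10 lower (20.2% of all genes), and synovial lining cells, marked chondrocytes and mural cells 1 each (of 10, 10 and 9, against 9.34%, 6.63% and 22.9% of all genes), with none higher in any class. The median of this list in fibroblasts was -0.71, against -0.17 for all genes. Dcn, the small proteoglycan decorin that binds collagen I fibrils, was at 7110 and 10213 CPM (0.52) in fibroblasts. Thus the collagen genes and Dcn had opposite signs in those cells. Lum was the only other gene of the list with a ratio above 0 there (834 and 1126 CPM, 0.43). The Dcn ratio was not particular to fibroblasts, at 0.69 in osteoblasts, 0.62 in synovial lining cells, 0.86 in marked chondrocytes, 0.08 in tendon cells and -2.22 in mural cells.

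Among the 17 other collagens, Col5a3, a further chain of collagen V, was 2-fold lower in osteoblasts, tendon cells, fibroblasts and marked chondrocytes, among them fibroblasts (790 and 217 CPM, -1.86), and its highest level in both libraries was in mural cells (831 and 548 CPM, -0.60). The median of the list in fibroblasts was -0.94. In all, 3 of 10 were 2-fold lower in osteoblasts (17.4% of all genes), 3 of 9 in fibroblasts (12.6%) and 4 of 11 in marked chondrocytes (6.63%). Some of these lay near the limit of 10 CPM. In osteoblasts they were Col5a3 (20.9 and 1.75 CPM) and Col8a2 (10.6 and 1.74 CPM). Col6a5 was at 18.2 and 2.19 CPM in fibroblasts. In marked chondrocytes Col18a1 was at 12.2 and 1.61 CPM and Col26a1 at 19.4 and 7.48 CPM. The rest were at 45.8 CPM or more in the control library. The counts in tendon cells (2 of 12, against 20.2%), synovial lining cells (1 of 9, against 9.34%) and mural cells (2 of 8, against 22.9%) lay near the shares of all genes, and 1 was higher in mural cells and 1 in marked chondrocytes. Of the 8 cartilage collagens, 5 of 7 were 2-fold lower in tendon cells, including Col11a1 (2502 and 819 CPM, -1.61) and Col2a1 (292 and 46.0 CPM, -2.64), with a list median of -1.61. The chondrocyte markers of these tendon cells summed to 2696 and 1698 CPM. In mural cells 5 of 8 were lower, beside chondrocyte markers of 226 and 76.2 CPM, in fibroblasts 2 of 4, in synovial lining cells 1 of 4, in osteoblasts 1 of 6 with 1 higher, and in marked chondrocytes 0 of 8 with 1 higher, Col10a1.

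Over the 12 profiles of class and library, the genes most like the collagen I chains by Pearson's r of log2(CPM + 1), among 5569 candidates, were Creb3l1 (0.97), Cpz (0.96), Fkbp7 (0.92), Serpinf1 (0.92) and Magi2 (0.92). For Col3a1 they were Tmod2 (0.96), Loxl1 (0.94), Morc4 (0.93), Anpep (0.93) and Fstl1 (0.92). For the collagen VI chains they were Rian (0.94), Atf1 (0.94), Meg3 (0.91), Mxra7 (0.90) and Pxdn (0.90). Col12a1 was closest to Mpzl1 (0.92), Tceal3 (0.88), Emilin1 (0.88), Copz2 (0.87) and Srp19 (0.85). Col14a1 was closest to Podn (0.95), Csgalnact2 (0.94), Mfap5 (0.94), Wipf1 (0.93) and Fbln2 (0.93), and Mfap5 is one of the markers that gated the fibroblasts. The 12 points share 2 libraries, so these values only describe likeness.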

How the data were processed

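Single cells of the knee joint were profiled with 3′ droplet chemistry in 1 library per genotype. Per the submitters' processing notes and the study's methods, reads were handled in Partek with STAR 2.7.3a and R 4.0.3 on mm10, and ambient RNA was removed with SoupX. The gene values deposited by the authors are log2(CPM + 1) per cell. They also deposited each cell's total as an estimated count, which ambient removal leaves fractional. Mitochondrial and ribosomal content was deposited as percent of that total, and a score column gives the genes detected. A deposited text column marks the authors' chondrocytes. The methods' limit of 5% mitochondrial counts is not met by all deposited cells, and all were used.

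Estimated UMIs were recovered as (2 to the power of the value, minus 1) times the total over 1000000, summed per class and library and divided by the sum to give CPM. Only 74.9% of positive control values and 97.3% of positive mutant values lay within 0.1 of a whole number, so no count model was used. A ratio needed at least 20 cells in both libraries, and a gene was called at 2-fold if at least 10 CPM in either. Doublets were not called by a tool. Cells with at least 2 markers of another class were left out as an alternative. Thinning used seed 1 and the 10th percentile of depth. Python 3.11.15, numpy 2.4.6, scipy 1.17.1, pandas 2.3.3 and matplotlib 3.10.9 were used, and the ratios were tested on simulated data. Alternatives were the marker minimum, cell filters, weighting of cells, pseudocount, scaling, leaving out the highest cells and the summary of the members. The genes named were the 10 members, those of the 4 lists, the class markers, Stat3, Prg4 and the 5 genes most like each of 5 profiles. The members and lists were chosen with earlier results of these data known. The splits of marked chondrocytes by osteoblast markers and Prg4 were chosen after seeing the data. Positions are from Gencode M21 on GRCm38, the assembly mm10, and promoter sequences from RefSeq.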

Additional observations from a re-analysis of the deposited data

Results flagged for a closer look

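Col6a3 differed in opposite directions between cell classes, with a log2 ratio of mutant to control of 1.02 in mural cells and -1.44 in osteoblasts. With 1 library per genotype the difference between the classes was not tested, and 3 cells supplied 51.9% of the mutant mural and 65.6% of the mutant osteoblast UMIs. The mural call was lost in 4 of 8 alternatives.

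Col5a1 had a value above 0 in 26.2% of the 1659 erythroid-gated control cells (exact 95% interval 24.1% to 28.4%), a class the comparisons use only as background. The other 9 members were above 0 in 0.904% to 5.06% of these cells, and Col5a2, its partner chain, in 3.25%. Thinned to 2000 UMIs per cell, the Col5a1 share was 9.22%. The Col5a1 level there was 49.2 CPM, and Col5a1 was above 0 in 0 of the 12 erythroid-gated mutant cells, which allows a share of up to 26.5%.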

How the results depend on the processing

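Each member's ratio in each class was recomputed under the alternatives, which gave 619 values. Of these, 585 stayed within 1.5-fold of the main value and 32 moved further, while 2 called values changed sign, both in cells with fewer than 2 markers of every other class (an alternative chosen after seeing the data for the gated classes): Col3a1 in osteoblasts (0.0014) and Col12a1 in synovial lining cells (0.93). The osteoblast median was -1.79 with at least 4 markers, -2.32 without the 3 cells highest for each member, and -0.11 from the members' summed CPM, where the collagen I chains outweigh the rest. Of 59 pairs of member and class that could be called, 14 were 2-fold lower and 1 higher. Scaling by the median of ratios gave 9 lower, and leaving out the 3 highest cells gave 22 lower and 0 higher. Weighting cells equally gave 0 higher, and a minimum of 2 markers gave 2 higher. Of the 15 calls, 6 were past 2-fold in every alternative run: Col6a1, Col6a2, Col6a3 and Col12a1 in osteoblasts, Col1a2 in tendon cells and Col5a1 in fibroblasts. The cause of these moves was not tested. Leaving out marked chondrocytes with at least 3 osteoblast markers, also chosen after seeing the data, turned Col1a1 from 0.71 to -1.28 and Col1a2 from 0.44 to -0.56, and leaving out those with 2 or more markers of any other class gave -0.28 and -0.43. With fewer than 20 cells in a library, mural cells gave no value within the mitochondrial limit or without globin, and neither tendon nor mural cells did in cells with fewer than 2 other markers. No paired analysis was possible because each genotype had 1 library. Depth limits the statements on Col14a1 in osteoblasts and mural cells, where at most 2 cells had a value.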

Other observations

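Among 141 control and 108 mutant cells gated on marrow stromal markers, which belong to none of the 6 classes, the 10 collagens supplied 1.41% and 0.898% of the UMIs. Col1a1 was at 4272 and 1901 CPM, Col6a2 at 1121 and 392 CPM and Col12a1 at 715 and 939 CPM. Collagen I chains were 64.3% and 56.5% of the members' UMIs, and collagen XII was 5.08% and 10.5%. Globin values were present in 63.8% of the control and 7.41% of the mutant cells of this class.

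The control library also held 661 cells that were gated as chondrocytes but lacked the authors' mark, of which 89.6% had a globin value, and the mutant library held 63. The 10 collagens supplied 1.82% and 1.46% of their UMIs. In these unmarked cells Col12a1 was at 1463 and 1198 CPM and Col1a1 at 4236 and 3598 CPM. Of the mutant UMIs, 3 cells held 39.8% for Col12a1 and 45.8% for Col1a1.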
